A study of Mus musculus with 6 samples.

Results

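The genes of blood clotting and clot lysis were followed in the liver of hSRY-ON and hSRY-OFF mouse pups. They are 37 genes, chosen by symbol for their known role, with earlier results of these data known, out of 18138 symbols on the array. Their 64 probes are part of 25697, and 57 of them, from 33 genes, passed the detection filter and were tested. Liver was taken at postnatal day 6 from FVB males (FVB/N in the study's methods), and total RNA of each group was hybridised in biological triplicate to Illumina MouseRef-8 bead arrays, 3 arrays for each group. All hSRY-ON pups carried Signalox-hSRY, a single-copy transgene at the H11 site in which the ubiquitous CAG promoter drives FLAG-tagged human SRY with EGFP once a Cre recombinase has recombined it. Cre came from oocytes of Ddx4-Cre mothers, so recombination took place in the early embryo, and the hSRY-ON pups chosen had not inherited Ddx4-Cre. In hSRY-OFF pups the transgene was not activated. The labels do not give the control's full genotype, and the study's methods describe controls in more than one way, as carriers of the unrecombined transgene, which expresses DsRed2, and as littermates without it or with Ddx4-Cre alone. The human SRY transgene itself was not analysed here.

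Most clotting proteins of the plasma are made by hepatocytes and secreted as inactive precursors. Tissue factor and factor VII start the cascade, factors XII, XI, IX and VIII amplify it, and factors X and V then turn prothrombin into thrombin, which makes fibrin out of fibrinogen. Several of the proteases need a carboxylation that depends on vitamin K. Antithrombin, heparin cofactor II and the protein C system hold thrombin in check, and plasmin, whose precursor plasminogen is also a liver product, dissolves the clot. Factor XIII subunit A, von Willebrand factor, thrombomodulin and the plasminogen activators come largely from blood cells or the vessel wall.

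Most tested probes of these genes were lower in hSRY-ON liver. At an adjusted p under 0.05 (limma, Benjamini-Hochberg over all 10734 tested probes), 34 of the 57 probes, 59.6%, were lower and 2 probes, 3.51%, were higher. The same test called 17.3% of all tested probes lower and 15.8% higher. By gene, 19 were called lower by at least 1 probe (17 of them by every tested probe, Cpb2 and Tfpi being the others), 2 were called higher (F13a1 and Vwf), 12 had no call, and 4 (F3, Fgb, Thbd and Plat) were not tested. The median difference of the members was -0.82 on the log2 scale, against 0.02 over all tested probes. In 38 probes every hSRY-ON array lay below every hSRY-OFF array and in 4 every one lay above, against 24.6% and 25.4% of all tested probes. Of the probes called lower, 23 fell at least 2-fold. In bulk liver RNA, fewer cells of a type and less RNA per cell cannot be told apart. Levels below are log2 normalised intensities, given as hSRY-OFF and then hSRY-ON replicates 1, 2 and 3, and differences are hSRY-ON minus hSRY-OFF with the standard error (SE, n = 3 per group).

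**Figure D1:**
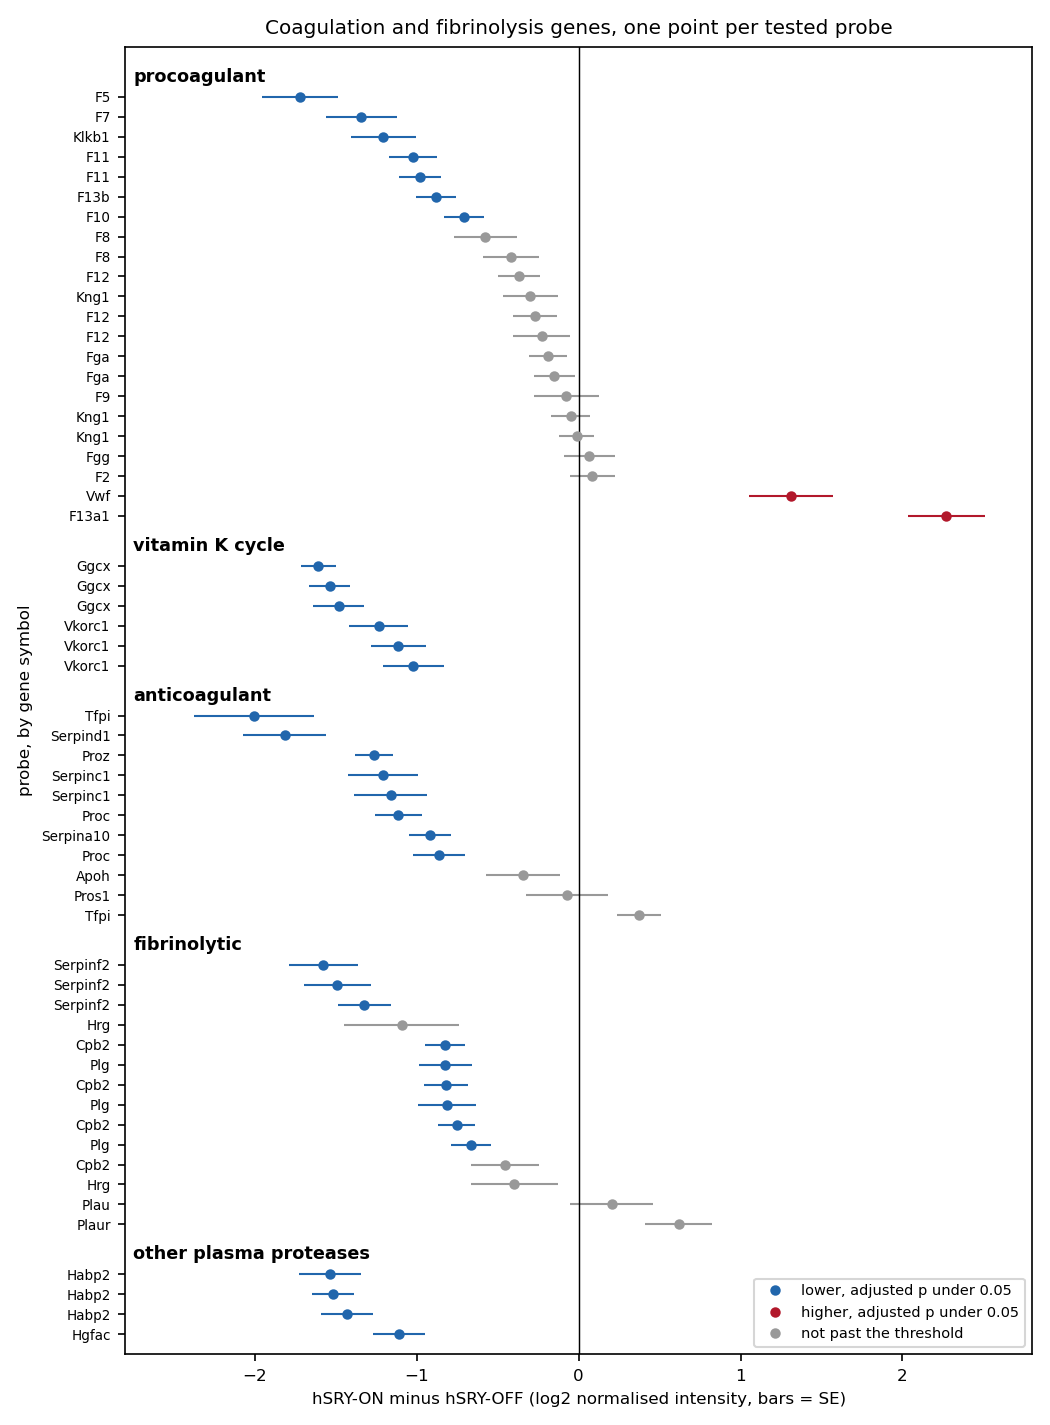
Difference between hSRY-ON and hSRY-OFF liver (x axis, log2 normalised intensity, bars are SE, n = 3 per group) for each of the 57 tested probes, labelled by gene symbol and grouped by role. Of these, 34 are called lower, 2 (Vwf and F13a1) are called higher and 21 do not pass the threshold, and every probe of the vitamin K cycle and of the other plasma proteases is called lower.

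On each array 10318 to 10762 probes were detected (40.2% to 41.9%), the median intensity was 146.9 to 164.7, and correlations were 0.965 to 0.982 among hSRY-ON and 0.987 to 0.992 among hSRY-OFF arrays. The liver markers fixed for the check were present in both groups, save Tat, which was detected on no array. Among 12 tested probes of hepatocyte markers 4 were lower and 1 was higher, with a median of -0.09. The lower probes were of Alb (-1.11), Serpina1a (-1.11 and -0.91) and Ttr (-0.46), and the higher probe was of Apoc3 (1.35). The summed level of the hepatocyte markers was 235300 to 240200 in hSRY-OFF and 234300 to 238500 in hSRY-ON. Several of the marker probes were near the top of the range. The Alb probe was dim instead, with raw intensities of 201.7 to 448.4 against array maxima of 44365 to 47161. Its difference may therefore not stand for the albumin transcript. The part of hepatocyte content in the results was not tested. The neutrophil markers had no call in 9 tested probes (1 was lower at an unadjusted limma p under 0.05), but their summed level was 45470 to 52430 in hSRY-OFF and 30150, 34920 and 90830 on hSRY-ON arrays 1, 2 and 3. Leaving out hSRY-ON replicate 3 left the member counts at 34 lower and 2 higher.

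Promoter sequence is shown for the 4 genes called lower with the smallest p-values, because these are the clearest falls among the members. The 250 bases before each start site are from RefSeq (GRCm38.p6), 5′ to 3′ on the gene's own strand, and capitals mark a match to a liver factor motif. Ggcx lies at chr6:72414058-72414307 (+), Habp2 at chr19:56287662-56287911 (+), Proz at chr8:13060658-13060907 (+) and Serpinf2 at chr11:75439502-75439751 (-).
Ggcx: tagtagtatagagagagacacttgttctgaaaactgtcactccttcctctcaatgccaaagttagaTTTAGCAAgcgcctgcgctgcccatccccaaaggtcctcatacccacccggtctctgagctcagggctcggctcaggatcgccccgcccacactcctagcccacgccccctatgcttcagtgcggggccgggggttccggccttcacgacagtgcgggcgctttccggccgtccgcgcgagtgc
Habp2: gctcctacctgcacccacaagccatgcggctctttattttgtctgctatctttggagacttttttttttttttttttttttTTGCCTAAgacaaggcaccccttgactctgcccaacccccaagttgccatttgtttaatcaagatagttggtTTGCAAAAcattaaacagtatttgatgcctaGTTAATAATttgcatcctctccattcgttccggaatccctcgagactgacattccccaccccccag
Proz: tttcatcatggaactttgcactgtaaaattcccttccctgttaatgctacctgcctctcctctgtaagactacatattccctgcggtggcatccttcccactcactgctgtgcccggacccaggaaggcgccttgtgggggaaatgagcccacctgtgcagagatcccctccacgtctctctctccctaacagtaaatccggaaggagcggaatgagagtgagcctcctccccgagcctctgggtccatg
Serpinf2: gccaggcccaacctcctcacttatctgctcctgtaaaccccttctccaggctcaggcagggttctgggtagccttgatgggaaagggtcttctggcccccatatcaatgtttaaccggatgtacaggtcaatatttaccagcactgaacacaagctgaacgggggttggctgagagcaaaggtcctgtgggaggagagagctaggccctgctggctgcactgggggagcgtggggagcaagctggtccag

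Letters searched on both strands were GTTAATNAT for HNF1, AAAGTCCA for HNF4, TTGCNNAA for C/EBP and TGTTTAC for FOXA, in the 250 bases before and 50 after each start. Ggcx held 1 C/EBP match on the reverse strand, Habp2 held C/EBP matches and an HNF1 match on the forward strand, and Proz and Serpinf2 held none of these letters. Among 31 promoter entries of 29 member genes, 11 (35.5%) held the C/EBP letters, against 10.8% of 32851 promoters in the table. The HNF1 letters were in 4 member promoters (12.9%, from F13b, Fga, Hgfac and Habp2) against 0.801% of all, the FOXA letters in 4 (12.9%, from Vkorc1, F11, Klkb1 and Apoh) against 3.65%, and the HNF4 letters in 0 against 1.25%. Matches were not limited to genes that were lower: the C/EBP letters stood in 6 of 16 lower genes with an entry, and also before F9, Fga, Fgb, Hrg and Plaur. Sites of 4 genes, with and without a call, are set out next with 8 bases on each side: the C/EBP match of F11, which was lower, that of F9, which had no call, and the HNF1 matches of F13b, which was lower, and Fga, which had no call. They lie at chr8:45262033-45262056 (-), chrX:59999432-59999455 (+), chr1:139501645-139501669 (+) and chr3:83026099-83026123 (+). In F11, a FOXA match stands just ahead of the C/EBP match, with 1 base between them.
F11 C/EBP: gtaaacatTTAAGCAAcagtgttc
F9 C/EBP: cctgacgcTTGCACAAtctcctaa
F13b HNF1: acattgtaATTATTAACttgttttg
Fga HNF1: caagggtgATGATTAACctcctgcc

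These matches are letters in a window and were not tested for binding. Transcripts of factors that use such motifs were themselves measured. Cebpa, which encodes C/EBP alpha, differed by -1.66 ± 0.27 (adjusted p = 0.00392) and Cebpb, which encodes C/EBP beta, by 1.39 ± 0.20 (adjusted p = 0.00266). Hnf4a had a difference of -0.09 ± 0.21 (adjusted p = 0.768). Foxa2 and Foxa3 were lower at -0.83 and -0.92, while the difference of Foxa1 was 0.34 (adjusted p = 0.412). In the list of liver regulators that held them, 10 of 21 tested probes were lower and 1 was higher, with a median of -0.48.

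The procoagulant genes were split. Of 22 tested probes, 7 were lower, 2 were higher and 13 had no call, and the median difference was -0.29. In the extrinsic and common pathway 3 of 4 tested probes were lower, with a median of -1.03. F7 encodes factor VII, the protease that tissue factor activates, and its levels were 10.82, 11.07 and 10.998 in hSRY-OFF and 9.25, 10.08 and 9.54 in hSRY-ON. The groups did not overlap, and the difference was -1.34 ± 0.22 (adjusted p = 0.004). F5 encodes factor V, the cofactor of the prothrombin-cleaving complex. Its levels were 10.39, 10.67 and 10.36 against 8.36, 9.26 and 8.62, a difference of -1.72 ± 0.24 or 3.29-fold (adjusted p = 0.0021). Every hSRY-ON array lay well under the lowest hSRY-OFF array for this gene. F10, the protease of the same complex, stood at 13.89, 14.04 and 13.91 against 13.13, 13.38 and 13.20, without overlap (-0.71 ± 0.12, adjusted p = 0.00538). F2, which encodes prothrombin, stood apart from them. Its levels were 12.76, 12.76 and 13.05 in hSRY-OFF and 12.86, 13.09 and 12.86 in hSRY-ON, the groups overlapped, and they differed by 0.08 ± 0.14 with no call (adjusted p = 0.672). Its sign, like that of Fgg, turned with some scalings. F3, the tissue factor gene, was detected on 0 arrays.

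The factors of the intrinsic and contact pathway gave 3 lower probes out of 12, with a median of -0.33, and all 12 estimates were below 0. F11 encodes the protease that activates factor IX. Its brighter probe read 12.84, 12.75 and 12.82 in hSRY-OFF and 11.82, 11.996 and 11.52 in hSRY-ON (-1.02 ± 0.15, adjusted p = 0.00254), and a dimmer probe differed by -0.98 ± 0.13 (adjusted p = 0.00185). Another F11 probe, detected on 2 hSRY-OFF arrays and 0 hSRY-ON arrays, was not tested. Klkb1, plasma prekallikrein, which activates factor XII, stood at 11.99, 12.07 and 11.86 against 10.88, 11.09 and 10.33 (-1.21 ± 0.20, adjusted p = 0.00461). For both genes the hSRY-OFF arrays lay wholly above the hSRY-ON arrays. F12 itself did not pass the threshold with any of 3 probes (differences of -0.37, -0.27 and -0.23, adjusted p = 0.0669, 0.163 and 0.354), although for the first of these the groups did not overlap. F9, the haemophilia B gene, read 12.25, 12.42 and 12.23 against 12.26, 12.59 and 11.83, overlapping (-0.08 ± 0.20, adjusted p = 0.799). F8, the haemophilia A gene, is made chiefly by endothelial cells, and its 2 tested probes differed by -0.42 and -0.58 (adjusted p = 0.102 and 0.0564). Kng1, high-molecular-weight kininogen, did not differ past the threshold with 3 probes (-0.30, -0.05 and -0.01). Its brightest probe reached 79.4% to 92.7% of the highest intensity on the array, which leaves little room for a difference to show, and a near-identical paralog, Kng2, makes its probes uncertain.

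Genes of the clot itself also went separate ways. Fga encodes the fibrinogen alpha chain, and its brighter probe read 15.15, 15.20 and 15.16 against 15.01, 15.08 and 14.85 (-0.19 ± 0.12, adjusted p = 0.249). The hSRY-ON arrays were all lower by this probe, which stood at 56.5% to 80.8% of the array maximum, but the other probe overlapped (-0.15, adjusted p = 0.395). Fgg, the gamma chain, was at 13.30, 12.91 and 13.20 against 13.26, 13.36 and 12.996 (0.07 ± 0.16, adjusted p = 0.776), with both groups over the same range. The single Fgb probe was detected on 1 array of 6 and gave no test of the beta chain. The subunits of factor XIII, the transglutaminase that cross-links fibrin, moved in opposite directions. F13b, the carrier subunit from the liver, was 13.28, 13.35 and 13.27 against 12.36, 12.58 and 12.33, a fall of 1.84-fold (-0.88 ± 0.12, adjusted p = 0.00212).

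F13a1, the catalytic subunit made in megakaryocytes and macrophages, was 7.22, 6.87 and 6.77 in hSRY-OFF and 8.78, 9.23 and 9.66 in hSRY-ON. Every hSRY-ON array was higher, by 4.83-fold on average (2.27 ± 0.24, adjusted p = 0.000756), and this was the largest rise of any member probe. Vwf, the carrier of factor VIII and the tether of platelets, comes from endothelium and megakaryocytes. It stood at 9.85, 9.24 and 9.55 against 11.03, 11.21 and 10.33, a rise of 2.48-fold without overlap (1.31 ± 0.26, adjusted p = 0.00852). Markers of megakaryocytes were higher as well, while those of endothelium were mixed. Of 10 tested probes of megakaryocyte and platelet markers 9 were higher and 0 were lower (10 and 0 at an unadjusted limma p under 0.05, median 1.17), with a summed level of 3298 to 5091 in hSRY-OFF and 6394 to 8145 in hSRY-ON. None of the 8 marker genes with a probe was undetected. Gp1bb and Itga2b encode parts of the platelet receptors for Vwf and fibrinogen. Gp1bb differed by 1.62, and Itga2b by 1.19 with its brighter probe and by 1.62 with its dimmer one. Of 13 endothelial probes 6 were higher and 1 was lower (median 0.54), at 15570 to 18080 against 19100 to 22140, and Kdr was detected on no array. By gene, 4 of 11 tested were higher and 1 was lower, and with 1 probe per gene the median was 0.24. The macrophage list, the other common source of F13a1, gave 4 lower and 1 higher among 11 (median -0.50), with 14750 to 16240 in hSRY-OFF and 9694, 10470 and 18570 in hSRY-ON, and Cd163 and Cd5l were undetected. The part of these cell types in the F13a1 and Vwf results was not tested.

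**Figure D2:**
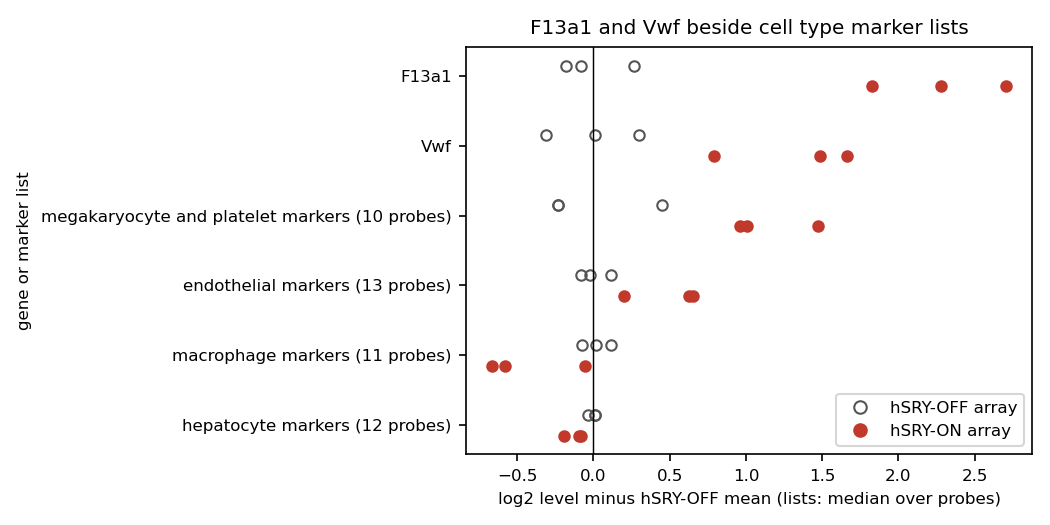
Level on each array minus the hSRY-OFF mean (x axis, log2) for F13a1 and Vwf, and the median over probes for 4 cell type marker lists, with open points for the 3 hSRY-OFF and filled points for the 3 hSRY-ON arrays. F13a1, Vwf, and the megakaryocyte and endothelial medians lie higher on every hSRY-ON array, while the macrophage and hepatocyte medians lie below 0 there. For the macrophage list, hSRY-ON array 3 lies within the hSRY-OFF range.

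The genes of vitamin K-dependent carboxylation were lower in all 6 tested probes, with a median of -1.36. Ggcx encodes the gamma-carboxylase that modifies prothrombin and its relatives. Its probe with the smallest p read 9.60, 9.61 and 9.51 in hSRY-OFF and 8.03, 7.96 and 7.91 in hSRY-ON, a 3.05-fold fall (-1.61 ± 0.11, adjusted p = 0.00016). The gap between the groups was many times the range within either, and the other 2 probes gave -1.54 and -1.48. Vkorc1, the epoxide reductase that recycles vitamin K and is the target of warfarin, was lower by 3 probes (-1.23, -1.11 and -1.02, adjusted p = 0.00286, 0.0033 and 0.00653). Its brightest probe was 13.95, 14.11 and 14.07 against 12.84, 13.27 and 12.67, again without overlap. The paralog Vkorc1l1 had 3 probes between 0.06 and 0.12, all without a call.

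Transcripts of the proteins that are carboxylated were not lower more often than those of other hepatocyte products. Protein and its carboxylation were not measured. Of 8 tested probes of vitamin K-dependent genes (F2, F7, F9, F10, Proc, Pros1 and Proz) 5, or 62.5%, were lower, against 22 of 35, or 62.9%, of other hepatocyte-derived members. The medians were -0.79 and -0.82. By usual source, 27 of 43 probes of hepatocyte-derived genes outside the vitamin K cycle were lower and 0 higher (also 0 at an unadjusted limma p under 0.05), while 8 tested probes of genes from other sources gave 1 lower and 2 higher (median 0.29). These counts were not compared by a test.

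The anticoagulant genes were lower in 8 of 11 tested probes and higher in 0, with a median of -1.11 (1 probe, of Tfpi, was higher at an unadjusted limma p under 0.05). Serpind1, heparin cofactor II, which inhibits thrombin, was 12.90, 13.10 and 12.93 in hSRY-OFF and 10.54, 11.46 and 11.49 in hSRY-ON. The groups lay far apart, a 3.52-fold fall (-1.81 ± 0.26, adjusted p = 0.00242). Serpinc1, antithrombin, the main plasma inhibitor of thrombin and factor Xa, read 8.68, 8.86 and 8.84 against 7.21, 8.11 and 7.57 with its brighter probe (-1.16 ± 0.22, adjusted p = 0.00772), and -1.21 with the dimmer one. No overlap was seen in either. Both Serpinc1 probes were dim, the brighter at 0.606% to 1.39% of the array maximum and the dimmer at 0.429% to 0.693%. In alternative fits their differences were as small as -0.80 and -0.57, so the size of this fall is uncertain. Serpina10, the inhibitor of factor Xa that acts with protein Z, was 13.20, 12.95 and 12.94 against 12.16, 12.19 and 11.99 (-0.92 ± 0.13, adjusted p = 0.00239). Its cofactor Proz was 11.80, 11.76 and 11.83 against 10.55, 10.65 and 10.42 (-1.26 ± 0.12, adjusted p = 0.000458). Thus both partners of this complex were lower on every hSRY-ON array.

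The protein C system was mixed. Proc, the protease that inactivates factors Va and VIIIa, read 12.70, 12.93 and 12.73 against 11.48, 11.89 and 11.65 by its probe with the smaller p (-1.11 ± 0.15, adjusted p = 0.00185), and differed by -0.86 with the other. Its cofactor Pros1 stood at 9.58, 9.98 and 9.48 against 9.55, 10.10 and 9.16, the groups overlapping (-0.07 ± 0.25, adjusted p = 0.843). Thbd, the endothelial receptor that lets thrombin activate protein C, was detected on 0 arrays. Apoh, beta-2-glycoprotein I, was 9.91, 9.96 and 10.04 against 9.46, 10.16 and 9.25 (-0.34 ± 0.23, adjusted p = 0.285), and hSRY-ON replicate 2 lay above all hSRY-OFF arrays. Without that array, Apoh passed the threshold at -0.61.

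Tfpi, the inhibitor of the tissue factor complex, gave probes that disagreed. Probe ILMN_1248790 read 7.75, 7.84 and 7.94 in hSRY-OFF and 4.88, 6.23 and 6.39 in hSRY-ON, where it was detected on 2 arrays of 3 (-2.01 ± 0.37, adjusted p = 0.00666). Probe ILMN_2819650 read 6.81, 6.75 and 6.48 against 7.16, 7.05 and 6.96, higher on every hSRY-ON array but without a call (0.37 ± 0.14, adjusted p = 0.0713). The remaining probe was detected on 0 arrays. Which transcripts of the gene each probe reads is not given in the sources used here, so no direction can be given for Tfpi as a whole. The size of the fall also rested on the background, being -0.94 without background correction.

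**Figure D3:**
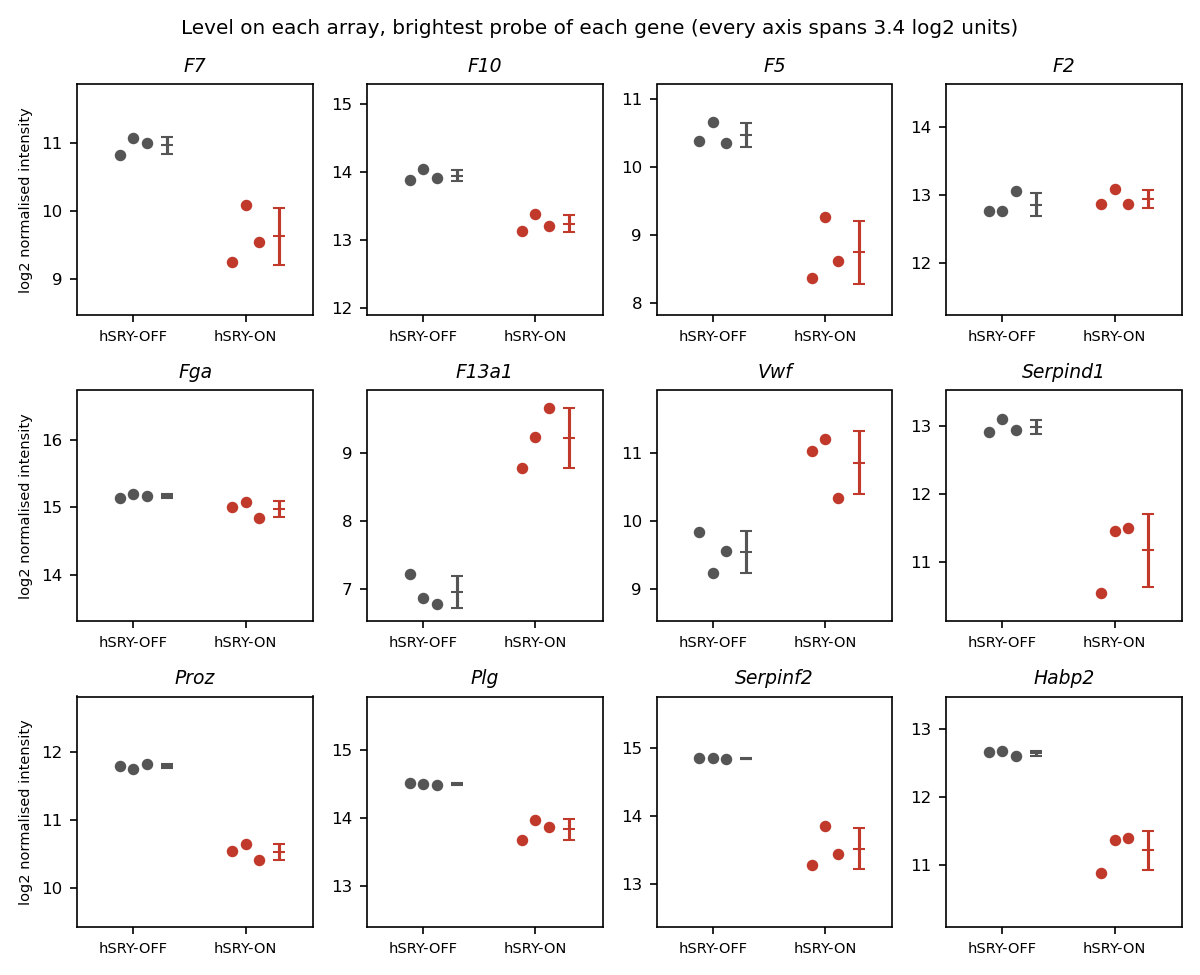
Log2 normalised intensity (y axis, each spanning the same number of log2 units) on each of 3 hSRY-OFF and 3 hSRY-ON arrays for the brightest probe of 12 genes, with mean and SD beside the points. F2 overlaps between groups, F13a1 and Vwf are higher on every hSRY-ON array, and the rest are lower on every hSRY-ON array, Fga by 0.19 without passing the threshold.

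The fibrinolytic genes were lower in 9 of 14 tested probes and higher in 0, with a median of -0.82 (1 probe, of Plaur, was higher at an unadjusted limma p under 0.05). Plg, plasminogen, read 14.51, 14.50 and 14.49 in hSRY-OFF and 13.67, 13.97 and 13.86 in hSRY-ON with its brightest probe (-0.66 ± 0.12, adjusted p = 0.00691), and differed by -0.81 and -0.82 with the others. The groups were separate in all 3 probes. One of them (-0.81) had an adjusted p of 0.0519 when hSRY-OFF replicate 2 was left out. Serpinf2, alpha-2-antiplasmin, the fast inhibitor of plasmin, was 14.85, 14.85 and 14.83 against 13.27, 13.85 and 13.43 (-1.32 ± 0.17, adjusted p = 0.00147). Its other probes gave -1.49 and -1.58, so that the inhibitor showed larger estimates than plasminogen in all 3 of its probes, a difference that was not tested. Cpb2, the carboxypeptidase TAFI, which protects fibrin from plasmin, was lower by 3 of 4 probes (-0.75, -0.82 and -0.82) and read 12.80, 12.996 and 13.07 against 12.10, 12.21 and 12.08 by the brightest. The fourth and dimmest Cpb2 probe overlapped between groups (-0.46, adjusted p = 0.133).

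Hrg, histidine-rich glycoprotein, which binds plasminogen and heparin, was at the edge of the threshold. Its brighter probe read 8.67, 8.90 and 8.99 against 7.74, 8.54 and 6.99 (-1.09 ± 0.35, adjusted p = 0.0505), with no overlap but a wide spread among hSRY-ON pups. The dimmer probe was detected on 2 hSRY-ON arrays and overlapped (-0.40, adjusted p = 0.287). The plasminogen activators, which come mainly from other cells, were dim. Plat, tissue plasminogen activator, was detected on 0 arrays. Plau, urokinase, was detected on 2 arrays of each group and differed by 0.20 ± 0.26 (adjusted p = 0.577). Its receptor Plaur read 6.38, 6.35 and 6.18 against 6.48, 7.02 and 7.26, higher on every hSRY-ON array without passing the threshold (0.62 ± 0.20, adjusted p = 0.0539).

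The other plasma proteases in the list, which are relatives of the clotting proteases, were lower in all 4 tested probes (median -1.48). Habp2, the factor VII-activating protease, was 12.66, 12.67 and 12.60 in hSRY-OFF and 10.88, 11.36 and 11.39 in hSRY-ON with its brightest probe (-1.43 ± 0.16, adjusted p = 0.000975), and its other probes gave -1.54 and -1.52. Hgfac, the activator of hepatocyte growth factor, was 13.13, 13.24 and 12.95 against 11.74, 12.05 and 12.21 (-1.11 ± 0.16, adjusted p = 0.00252). Neither gene showed an overlap between groups in any probe.

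**Figure D4:**
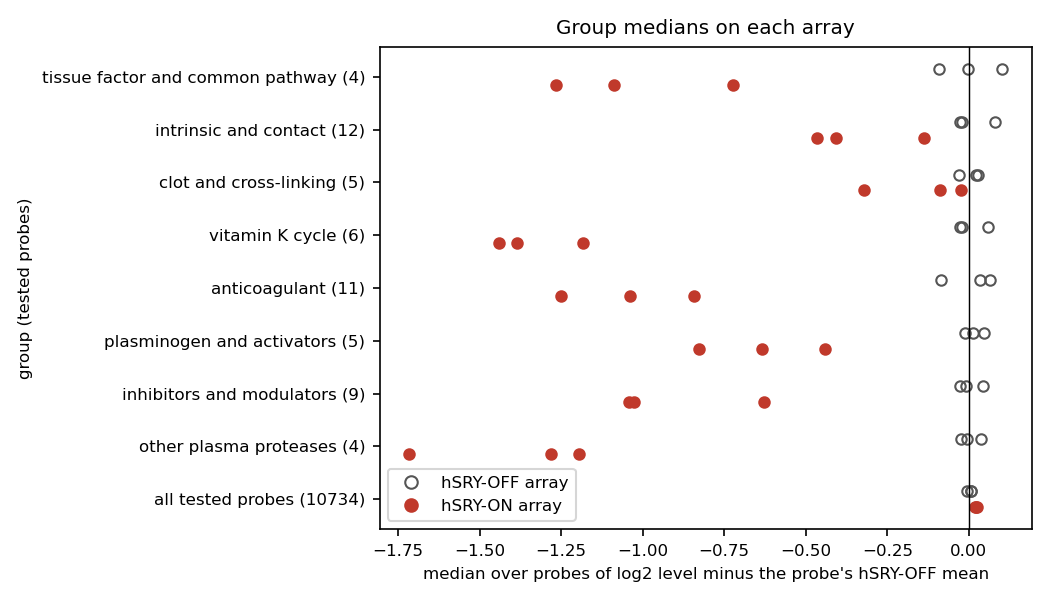
Median over the tested probes of each group (number in brackets) of the log2 level minus the probe's hSRY-OFF mean (x axis), with open points for hSRY-OFF and filled points for hSRY-ON arrays. The 3 hSRY-ON points lie below the hSRY-OFF points in each of the 8 gene groups plotted but clot and cross-linking, where 1 hSRY-ON array lies within the hSRY-OFF range, and stay close to 0 over all tested probes. Of the 5 tested probes of plasminogen and activators 3 are of Plg, and with 1 probe per gene the median difference of that group was 0.20.

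Side by side, the procoagulant, anticoagulant and fibrinolytic groups differed in their shares: 31.8%, 72.7% and 64.3% of tested probes were lower, against 17.3% of all tested probes. Their medians on hSRY-ON arrays 1, 2 and 3 were -0.35, -0.09 and -0.45 for procoagulant, -1.25, -0.84 and -1.04 for anticoagulant, and -0.87, -0.52 and -0.91 for fibrinolytic probes. The array of hSRY-ON replicate 2 was nearest to the hSRY-OFF level in each of these groups. Probes of 1 gene are not independent, and with 1 probe per gene the medians were -0.27, -0.89 and -0.74. In the same order, 6 of 15, 6 of 8 and 3 of 6 tested genes were lower by at least 1 probe. The anticoagulant count includes Tfpi, whose tested probes disagreed. Over the whole array, 1507 of 8225 tested symbols were lower by at least 1 probe. Of the 9 lower fibrinolytic probes, 6 were of Serpinf2 and Cpb2, which act against clot lysis. Of 15 genes with more than 1 tested probe, 13 had the same call in all of them, the exceptions being Tfpi and Cpb2. The difference between the groups was not tested.

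Other genes of haemostasis, from a wider list, were lower in 10 and higher in 4 of 28 tested probes (median 0.01), with 34 of 36 genes on the array. These are 35.7% lower and 14.3% higher, against 17.3% and 15.8% of all tested probes, so rises were no more frequent here than over the array. Lman1 and Mcfd2, which form the receptor that carries factors V and VIII out of the endoplasmic reticulum, were both lower, at -0.75 ± 0.13 (adjusted p = 0.0046) and -0.72 ± 0.11 (adjusted p = 0.00363). Genes of this list are named for the largest changes in each direction or for their link to a member, after their values were seen. Masp1, a complement protease that can also act on fibrinogen, had the largest fall of the list (-1.59). The largest rise among its tested probes was that of F2r, the thrombin receptor PAR1, at 1.64 ± 0.17 (adjusted p = 0.000741), from 12.28, 11.999 and 11.91 to 13.81, 13.86 and 13.41. F2rl2, a further thrombin receptor, Thbs1, a platelet granule protein, and Serpinb2, an inhibitor of urokinase, also rose, by 1.001, 1.204 and 0.92. They were dim, with hSRY-OFF means of 6.16, 6.08 and 5.47, where the lowest detected level on hSRY-OFF arrays was 5.69 to 5.79. Serpinb2 was detected on 1 hSRY-OFF array, and its difference was 0.65 with undetected arrays raised to that level. F2rl1, the receptor PAR2, was detected on 2 hSRY-ON arrays and 0 hSRY-OFF arrays and was not tested. Procr, the protein C receptor, was detected on no array.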

How the data were processed

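The authors deposited, for 25697 probes on 6 arrays, a mean bead intensity on a linear scale, neither background-subtracted nor normalised, and the deposited detection p-value of each probe, its rank among negative control beads. Array software settings and scan dates were not given in the sources used here, and a bead array has no read depth, so the number of arrays limits the precision. The study names TCC, a package for count data, which was not used on intensities. Here background was removed with nec (offset 16) and arrays were quantile-normalised in limma 3.58.1 under R 4.3.3. Probes with a detection p-value under 0.01 on at least 3 of 6 arrays (10734) were tested on the log2 scale with lmFit and eBayes, without covariates, all p-values were adjusted by Benjamini-Hochberg, and the threshold was 0.05. The fit was also run on simulated data with independent noise. Changes were planted there only in probes detected on all arrays, so it does not speak to members near background. Groups came from the sample labels, which do not name a pairing of the replicate numbers. Nothing in the labels says more of the replicates than their number, while the study's text calls them biological triplicates. The p-values set the difference between groups against the spread between these samples, moderated over all tested probes. Members and lists were chosen with earlier results of these data known, and the rule for named genes was to name all 37 members. Promoters were matched by symbol to a RefSeq table (GRCm38.p6) for 29 of 37 genes. All columns of the table matched a sample (0 did not), and other organs were not analysed here. Alternatives changed the background correction, the scaling, the filter, the variance model, the threshold, the probe per gene and the arrays used.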

Additional observations from a re-analysis of the deposited data

How the results depend on the processing

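Of the 36 member probes with a call, 35 kept it in every alternative fit run for them (16, or 15 for the Tfpi probe), and no direction reversed. The exception was a Plg probe without hSRY-OFF replicate 2. Leaving out 1 array at a time gave 33 to 38 lower and 2 to 3 higher member probes. With 1 probe per gene, the brightest, 18 genes were lower, since fewer probes enter and the Tfpi probe taken is the one without a call. The anticoagulant median was -0.84 without background correction, which shrinks dim probes, and -0.89 with 1 probe per gene. Over these fits the F13a1 difference ran from 1.53 to 2.50 and that of the lower Tfpi probe from -2.30 to -0.94. Among 21 probes without a call, 5 gained one in some setting: a probe each of F8, F12, Apoh, Plaur and Hrg. The replicate block gave 35 lower and 2 higher member probes, and same-numbered arrays did not deviate together (correlations of 0.0248, 0.0955 and 0.0523), so the numbers were not taken to pair pups. Signal near the top of the range limits Kng1 and Fga, and signal near background limits Fgb, Plat, Plau, F3 and Thbd. Dim signal also limits the size of the Serpinc1 fall.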
